A study of Mus musculus with 60 samples.

Results

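The genes described here are 10 germline and meiosis genes: Stra8, Dazl, Sycp1, Sycp2, Sycp3, Mael, Smc1b, Tdrd1, Ddx4 and Mov10l1. They were taken by gene symbol, and each matched 1 probe set, so the 10 members are 10 of the 19938 symbols and 10 of the 21789 single-symbol probe sets tested. The data are log2 signals from 60 Affymetrix mouse gene arrays, with 3 arrays in each of 20 groups. All groups were R1 cells, an established mouse embryonic stem cell line, kept attached and undifferentiated and exposed for 6 h. Feeder cells had been depleted before seeding.

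The 10 compounds labelled teratogens were 1 mM (-)-d-penicillamine, 0.35 mM (+/-)-Thalidomide, 5-azacytidine (azacitidine), All trans retinoic acid at 0.024 mM, Dexamethazone (dexamethasone from here on) at 0.1 mM, 1 mM Dimethadione, 1 mM Fluconazole, 1 mM Topiramate, 0.028 µM Methotrexate and 1 mM VPA (valproic acid). For 5-azacytidine the labels disagree on the dose, with 0.23 µM in titles against 23 µM elsewhere. The 9 compounds labelled non-teratogens were 1 mM Chlorthalidone, 0.028 mM Clozapine, 0.37 mM Glybenclamide, 1 mM Hydrochlorothiazide, 0.043 mM Loratadine, 0.17 mM Metoclopramide, 0.054 mM Ondansetron, 1 mM Paracetamol and 1 mM Sulfasalazine. Every compound group also carried the solvent, and the control group received 0.1% DMSO alone. Doses were set by a viability assay, by a ceiling of 1 mM or by solubility, so doses differ between compounds. All compounds were set against the same 3 DMSO arrays, and the labels do not say whether the 3 arrays of a group came from separate cultures. The p-values then measure only the spread between these arrays.

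Meiosis begins in germ cells when retinoic acid induces Stra8, a nuclear factor required for meiotic entry. Chromosomes are then organised along axes by cohesins such as Smc1b and by Sycp2 and Sycp3, and Sycp1 joins the paired axes in the synaptonemal complex. Ddx4, a DEAD-box RNA helicase, Mael, Tdrd1 and Mov10l1 act in the piRNA pathway, which silences transposons in the germline, and Dazl binds the 3' untranslated regions of germ cell mRNAs. In embryonic stem cells, promoters of many such genes are held down by DNA methylation and by a Polycomb complex with E2F6 and with MGA and MAX, which bind the E-box. Some germline transcripts are nevertheless present in cultured embryonic stem cells.

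Promoters of the 6 members that carried the largest called changes are shown, from RefSeq on GRCm38.p6, as the 250 bases before a listed start in the direction of transcription. For Stra8 and Ddx4 that window lies inside the annotated gene. The gene begins at 34920163 for Stra8 and, on the - strand, at 112652633 for Ddx4. Capitals mark matches, on either strand, to the E-box CACGTG, to the E2F6 core TCCCGC, whose reverse complement is what appears in the Sycp3 and Ddx4 lines, and to the retinoic acid receptor motif AGGTCA. Stra8 lies at chr6:34920698-34920947 on the + strand, Sycp3 at chr10:88459337-88459586 on the + strand, Sycp1 at chr3:102936101-102936350 on the - strand, Mael at chr1:166238745-166238994 on the - strand, Smc1b at chr15:85131958-85132207 on the - strand and Ddx4 at chr13:112652311-112652560 on the - strand.
Stra8: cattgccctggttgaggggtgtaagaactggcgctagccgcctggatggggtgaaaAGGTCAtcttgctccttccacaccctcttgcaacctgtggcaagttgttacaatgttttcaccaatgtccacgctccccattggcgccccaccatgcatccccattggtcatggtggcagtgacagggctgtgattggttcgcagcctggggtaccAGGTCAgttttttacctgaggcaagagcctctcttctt
Sycp3: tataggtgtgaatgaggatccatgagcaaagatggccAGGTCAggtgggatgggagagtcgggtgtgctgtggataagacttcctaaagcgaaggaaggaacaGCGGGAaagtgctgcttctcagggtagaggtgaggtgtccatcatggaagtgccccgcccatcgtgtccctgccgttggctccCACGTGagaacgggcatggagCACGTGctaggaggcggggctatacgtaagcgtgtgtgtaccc
Sycp1: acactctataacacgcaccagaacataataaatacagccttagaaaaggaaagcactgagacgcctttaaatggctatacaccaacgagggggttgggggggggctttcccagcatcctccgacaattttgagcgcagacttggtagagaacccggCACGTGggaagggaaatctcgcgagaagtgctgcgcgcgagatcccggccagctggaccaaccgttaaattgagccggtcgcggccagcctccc
Mael: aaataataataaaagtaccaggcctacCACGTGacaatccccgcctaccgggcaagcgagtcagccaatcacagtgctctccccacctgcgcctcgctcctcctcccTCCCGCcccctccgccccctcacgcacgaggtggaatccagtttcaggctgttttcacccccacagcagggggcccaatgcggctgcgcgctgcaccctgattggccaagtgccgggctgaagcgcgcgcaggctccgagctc
Smc1b: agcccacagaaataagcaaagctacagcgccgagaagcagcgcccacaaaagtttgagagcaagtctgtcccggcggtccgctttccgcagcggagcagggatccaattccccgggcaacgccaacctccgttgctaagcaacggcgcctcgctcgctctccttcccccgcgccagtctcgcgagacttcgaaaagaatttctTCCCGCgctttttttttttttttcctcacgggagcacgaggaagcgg
Ddx4: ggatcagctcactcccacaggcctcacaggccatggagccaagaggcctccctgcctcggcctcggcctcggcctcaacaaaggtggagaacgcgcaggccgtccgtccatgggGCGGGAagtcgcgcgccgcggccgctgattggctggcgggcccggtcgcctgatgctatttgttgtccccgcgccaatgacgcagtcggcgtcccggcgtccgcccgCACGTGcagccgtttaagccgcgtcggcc

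All 10 members matched a promoter entry. An E-box was found in 6 of 10 (Sycp1, Sycp3, Mael, Tdrd1, Ddx4 and Mov10l1), and 6.02% of all 32851 promoters of the same length hold it. The E2F6 core was found in 4 of 10 (Sycp3, Mael, Smc1b and Ddx4), against 16.9% of all promoters. Sycp3, Mael and Ddx4 held both. The AGGTCA motif was found in Stra8, at 2 places 150 bases apart, and in Sycp3, against 14% of all promoters. Direct repeats of its looser form, (A/G)G(G/T)TCA, were searched at spacings of 2 or 5 bases, the arrangement retinoic acid receptors are known to bind. They were found in none of the 10 windows, and are in 0.174% and 0.0883% of all promoters. CG dinucleotides numbered 31 in the Ddx4 window, 25 in Smc1b, 18 in Mael, 17 in Sycp1, 12 in Sycp3 and 5 in Stra8, beside a median of 6 over all promoters. These matches are letters in a window, which for Stra8 and Ddx4 lies inside the annotated gene, and do not show binding.

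**Figure D1:**
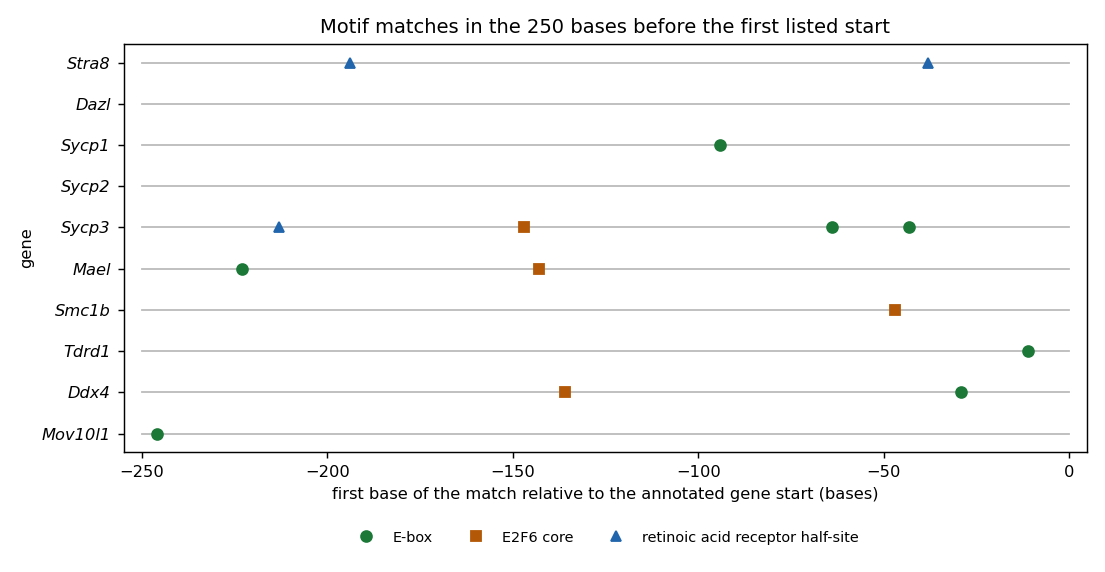
Positions of motif matches in the 250 bases before the first listed start of each of the 10 genes, in bases from that start. Circles are E-boxes, squares are E2F6 cores and triangles are the AGGTCA motif, which is drawn for Stra8 and Sycp3. Dazl and Sycp2 carry no mark.

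Array medians were 7.58 to 7.79 on the log2 scale, and interquartile ranges were 2.97 to 3.32. The ranges differed between groups, with 3.315, 3.313 and 3.298 for sulfasalazine and 3.199, 3.109 and 3.231 for DMSO. Hydrochlorothiazide had 2.974, 2.993 and 3.174. Markers of other cells were read beside the members. The summed level of 11 fibroblast markers, taken as markers of feeder cells, lay between 13.51 and 13.80 on the log2 scale on every array. Vim, with a median of 13.11 against 10.08 for the next, Col1a1, made up most of that sum. The sum therefore says little about the other markers. Of the 11, loratadine raised 1 and lowered 3, and retinoic acid and VPA each raised 1 and lowered 1. Glybenclamide, sulfasalazine and dexamethasone each lowered 1, and ondansetron changed 0. Over all probe sets, in the test defined below, loratadine called 10.9% higher and 8.26% lower, and VPA 15.5% and 11%. Retinoic acid called 5.9% and 3.92%, glybenclamide 6.79% and 2.75%, and sulfasalazine 5.4% and 3.5%. Dexamethasone called 1.51% and 4.74%, and ondansetron 0.289% and 0.0413%. These shares apply to the next marker lists too. The summed level of 14 spermatid and oocyte markers lay between 10.88 and 11.22, and 0 of the 14 were called higher in any of the compounds with a called member. Retinoic acid lowered 2 of the 14, and sulfasalazine and VPA lowered 1 each. Medians of the 14 over all arrays ran from 5.49 (Acrv1) to 8.77 (Zp3). Stra8, Dazl, Sycp1, Sycp2, Smc1b and Tdrd1 averaged under the median probe set, with DMSO means from 5.20 (Stra8) to 7.54 (Dazl). Those levels are not set apart from the levels of these markers. How much of their signal is background was not tested. The summed level of 10 embryonic stem cell markers was 15.57 with VPA and 15.66 with paracetamol, against 15.80 in DMSO. With each of these 2 compounds, 6 of the 10 fell. Dexamethasone lowered 2 and chlorthalidone 1, while loratadine raised 2 and retinoic acid, sulfasalazine and clozapine raised 1 each. Of all probe sets, 8.76% were called in either direction with paracetamol, 2.58% with chlorthalidone and 1.31% with clozapine. Nanog, a defining marker of the labelled cell type, averaged 12.63 in DMSO. In bulk RNA, fewer cells of a type and less RNA per cell cannot be told apart. The part of these markers in the results below was not tested.

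Levels are deposited log2 signals, and differences are log2 fold changes, compound over DMSO, with their standard error. A gene was called when its limma p-value, adjusted by Benjamini-Hochberg over the 21789 probe sets of that comparison, was under 0.05. Of the 190 pairs of a member and a compound, 19 were called, 18 higher and 1 lower. Over all probe sets, 5.04% of pairs were called, 2.84% higher and 2.19% lower. At an unadjusted p under 0.05 there were 43 of 190 pairs, 36 of them higher, beside 16.6% of all pairs over all probe sets, 8.29% higher. Of the 10 members, 9 were called with at least 1 compound, and Tdrd1 with none. Called members occurred with 7 of the 19 compounds. DMSO array 2 had the lowest of the 3 DMSO values for 6 members (Dazl, Sycp1, Sycp2, Sycp3, Mael and Ddx4). Without it 12 pairs were called, but these were not all among the 19. Dazl with VPA and Mael with hydrochlorothiazide were gained. Lost were all calls of Sycp1 and of Ddx4, Sycp3 with sulfasalazine and VPA, Mael with sulfasalazine, and Mov10l1 with glybenclamide.

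**Figure D2:**
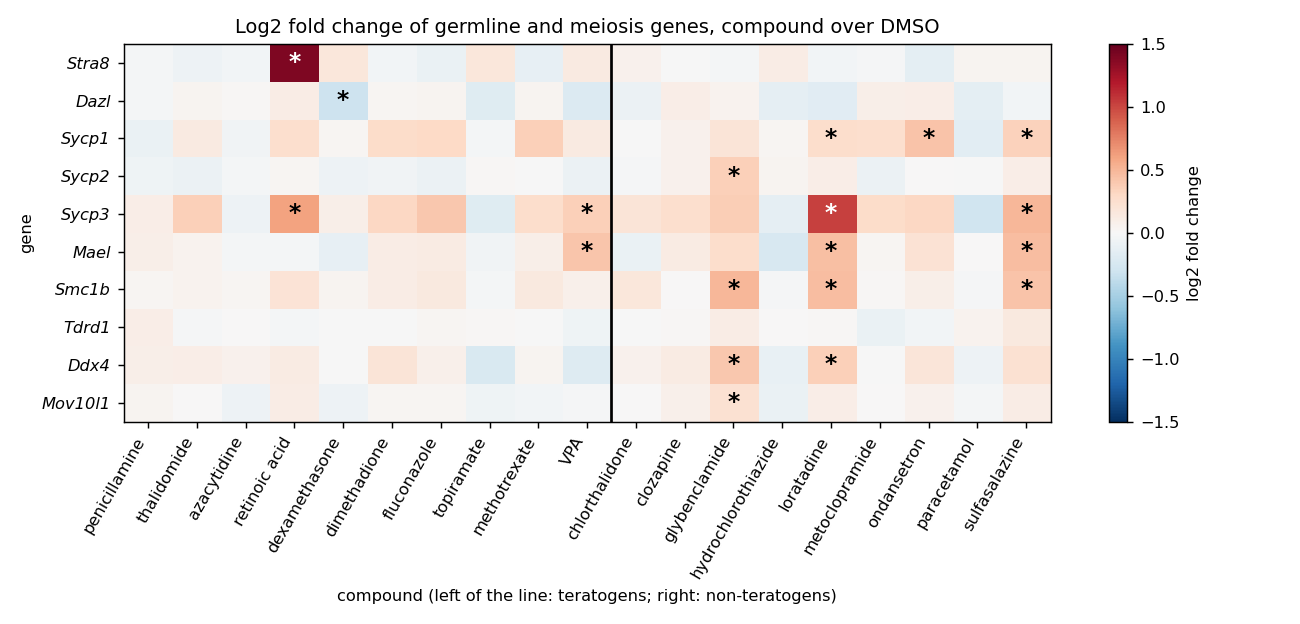
Log2 fold change over DMSO of the 10 genes (rows) for the 19 compounds (columns, teratogens left of the line), red for higher and blue for lower. Asterisks mark the 19 called pairs: Stra8 stands out with retinoic acid, Sycp3 with loratadine, and most other asterisks lie under loratadine, glybenclamide and sulfasalazine.

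Stra8, the retinoic acid target that opens meiosis, rose with All trans retinoic acid. Its levels were 6.47, 6.57 and 6.75 with retinoic acid, against 5.28, 5.34 and 4.97 in DMSO. Every retinoic acid array lay above every DMSO array. The means were 6.60 ± 0.14 with retinoic acid and 5.20 ± 0.20 in DMSO (SD, n = 3 each), a log2 fold change of 1.40 ± 0.096, or 2.64-fold (adjusted p = 3.09e-16). With retinoic acid, 5.9% of all probe sets were called higher. Stra8 was not called with any of the other 18 compounds, and 0 of those reached an unadjusted p under 0.05. Their differences ran between -0.14 (ondansetron) and 0.17 (dexamethasone). VPA, an inhibitor of histone deacetylases, gave 0.13 (95% interval -0.06 to 0.33, adjusted p = 0.372). Set directly against each other compound, retinoic acid was called higher in 18 of 18 comparisons, by 1.23 (against dexamethasone) to 1.54 (against ondansetron). Over all probe sets, 16.9% of such comparisons were called in either direction, 6.93% to 38.5% by compound. Here and for each gene below, the compound set against the others was the called one of largest change. The shares over all probe sets had no such choice and take in calls of either direction. Counts and shares are therefore not like for like. The other 19 groups, DMSO included, had means of 5.06 to 5.37, and neighbours in that order differed by less than the larger of their SDs.

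The genes with 20 group means most like those of Stra8 were Rarb, a retinoic acid receptor (Pearson r = 0.98), Dhrs3, a retinaldehyde reductase (0.97), and Hoxb1, a homeobox gene (0.96). These correlations describe 20 means, of which that of retinoic acid is the 1 that stands apart for Stra8.

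Sycp3, a core protein of the chromosome axis, had the most calls. It rose with loratadine, an antihistamine, with levels of 10.17, 9.95 and 10.08, against 9.23, 8.87 and 9.02 in DMSO. Loratadine arrays all lay above the DMSO arrays. The means were 10.07 ± 0.11 with loratadine and 9.04 ± 0.18 in DMSO (SD, n = 3 each), a log2 fold change of 1.02 ± 0.13, or 2.03-fold (adjusted p = 2.69e-08). With loratadine, 10.9% of all probe sets were called higher.

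Sycp3 also rose with retinoic acid, where the arrays read 9.47, 9.95 and 9.53 (log2 fold change 0.61 ± 0.13, adjusted p = 0.000593). Sulfasalazine, an anti-inflammatory drug, gave 9.56, 9.55 and 9.53 (0.50 ± 0.13, adjusted p = 0.011), and 5.4% of all probe sets were called higher with it. VPA gave 9.57, 9.34 and 9.30 (0.36 ± 0.13, adjusted p = 0.030), and 15.5% of all probe sets were called higher with it. The arrays of these 3 compounds did not overlap DMSO either. The VPA call was lost without VPA array 1, without DMSO array 2 and without DMSO array 3, and the sulfasalazine call without DMSO array 2. Both were also lost with each array's interquartile range as a covariate. In all, the VPA call was lost in 7 of 16 alternative settings.

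Several uncalled compounds lay close to those that passed. Glybenclamide, a sulfonylurea, gave 0.37 (adjusted p = 0.0537), fluconazole 0.40 (adjusted p = 0.642) and thalidomide 0.36 (adjusted p = 0.556). An adjusted p depends on how many probe sets moved in that comparison, so like differences fell on either side of the threshold. In all, 10 of the 19 compounds had every Sycp3 array above every DMSO array, and DMSO was 16th of the 20 groups in order of mean level. Of all probe sets, 11.4% had every array above DMSO with retinoic acid, 16.6% with glybenclamide and 19.6% with sulfasalazine. The 10 compounds share the same 3 DMSO arrays, so they are not separate observations. The lowest mean was 8.74 ± 0.28 with paracetamol, a difference of -0.30 (adjusted p = 0.162).

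Loratadine had the highest Sycp3 mean, followed by retinoic acid (9.65), sulfasalazine (9.54), fluconazole (9.44), glybenclamide (9.42), VPA (9.40) and thalidomide (9.40). Set directly against the other 18 compounds, loratadine was called higher in 18, by 0.42 (retinoic acid, adjusted p = 0.0144) to 1.32 (paracetamol). Over all probe sets, 20.3% of these loratadine comparisons were called, 6.81% to 46.9% by compound. From retinoic acid downwards, neighbouring means differed by less than the larger of their SDs. The genes most like Sycp3 over the 20 means were Gtf2h1, a subunit of the general transcription factor TFIIH (r = 0.95), Phyh, a peroxisomal hydroxylase (0.93), and Septin2, a cytoskeletal GTPase (0.92).

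**Figure D3:**
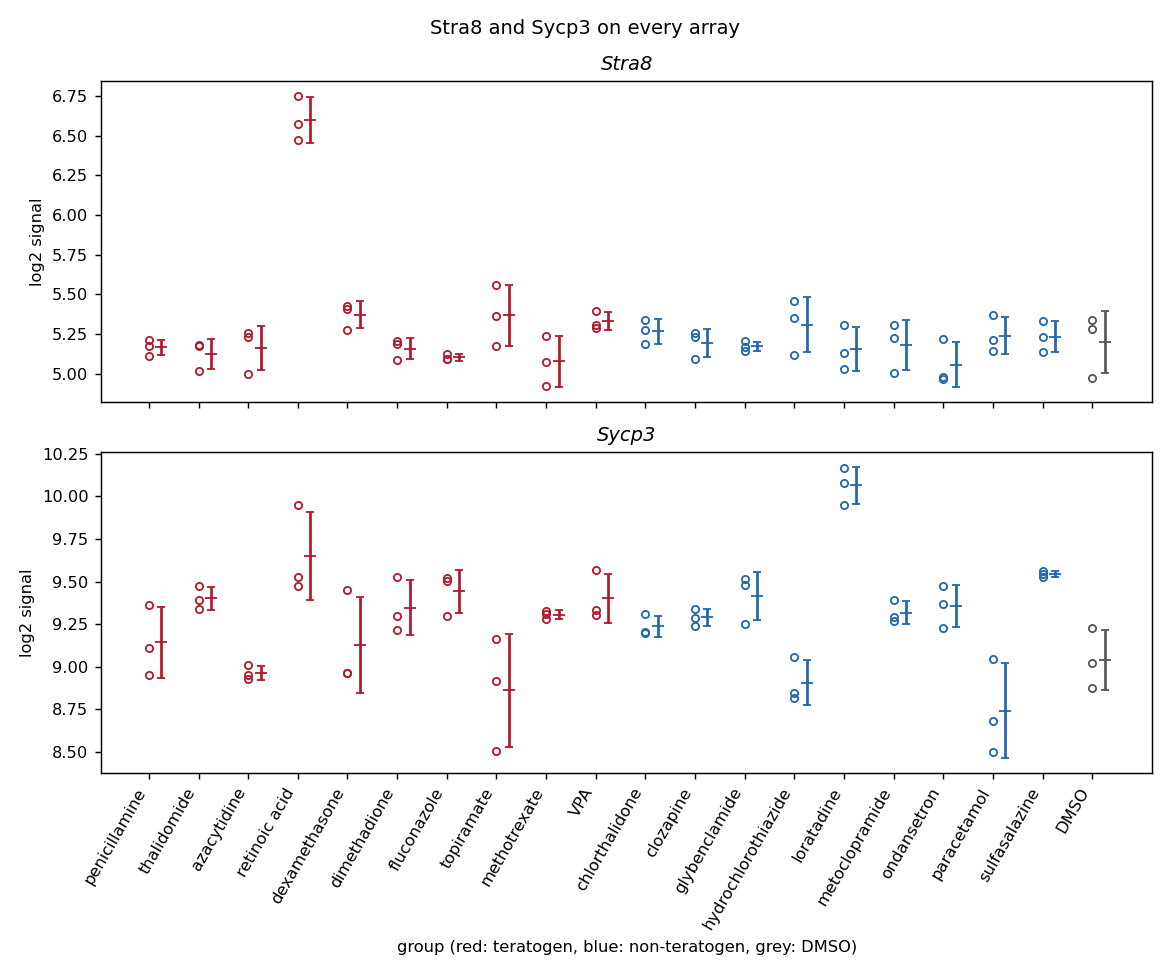
Log2 signal of Stra8 (top) and Sycp3 (bottom) on all 60 arrays by group; circles are arrays, and bars give the mean and SD of 3. Stra8 is set apart in the retinoic acid group alone, whereas Sycp3 spreads over the groups between 8.74 (paracetamol) and 10.07 (loratadine).

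Smc1b, the meiosis-specific SMC subunit of cohesin, rose with 3 compounds. Glybenclamide gave 7.56, 7.67 and 7.83, against 7.28, 7.23 and 7.04 in DMSO, a log2 fold change of 0.50 ± 0.083 (adjusted p = 3.01e-05). Of all probe sets, 6.79% were called higher with glybenclamide. Loratadine gave 7.91, 7.48 and 7.56 (0.46 ± 0.083, adjusted p = 3.75e-05). Sulfasalazine gave 7.61, 7.57 and 7.66 (0.43 ± 0.083, adjusted p = 0.000825). The arrays of all 3 compounds lay above the DMSO arrays, and the 3 calls were kept under every setting in which Smc1b was tested. Retinoic acid arrays also lay above DMSO, with a difference of 0.21 that was not called (adjusted p = 0.103).

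The highest Smc1b mean was 7.69 ± 0.13 with glybenclamide, chosen as the compound of largest change, and 16 of its 18 direct comparisons were called. Of such glybenclamide comparisons, 12.5% were called over all probe sets. It was not called against loratadine (difference 0.04, 95% interval -0.13 to 0.21) or sulfasalazine (0.07, -0.09 to 0.24). The DMSO mean was 7.19 ± 0.12, 17th of 20.

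Sycp2, the partner of Sycp3 on the axis, rose with glybenclamide, at a signal under that of the median probe set. It measured 6.17, 5.96 and 6.00 with glybenclamide, against 5.71, 5.66 and 5.69 in DMSO. The arrays did not overlap, and the log2 fold change was 0.36 ± 0.088 (adjusted p = 0.00476). Without glybenclamide array 1 the adjusted p was 0.0616. In direct comparisons glybenclamide was called higher than 16 of the 18 other compounds, where 12.5% of comparisons were called over all probe sets. Against loratadine (0.26, 95% interval 0.08 to 0.44) and sulfasalazine (0.26, 0.08 to 0.43) it was not called. Sycp2 was not called with loratadine or sulfasalazine against DMSO.

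Sycp1, the transverse filament of the synaptonemal complex, rose with 3 compounds. Ondansetron, a serotonin receptor antagonist, gave 6.39, 6.62 and 6.57, against 6.15, 5.91 and 6.24 in DMSO (log2 fold change 0.43 ± 0.090, adjusted p = 0.0139). Of all probe sets, 0.289% were called higher with ondansetron. Sulfasalazine gave 6.45, 6.41 and 6.49 (0.35 ± 0.090, adjusted p = 0.012), and loratadine 6.40, 6.38 and 6.30 (0.26 ± 0.090, adjusted p = 0.0359). All of these arrays lay above DMSO. All 3 calls were lost without DMSO array 2, at 5.91 the lowest Sycp1 value in DMSO. They were also lost with each array's interquartile range as a covariate. The ondansetron call was also lost without ondansetron array 2 or 3, and the loratadine call without loratadine array 1 or 2. Of 15 alternative settings, the loratadine call was lost in 9, the ondansetron call in 5 and the sulfasalazine call in 3. Ondansetron, chosen as the compound of largest change, was called higher than 8 of the 18 other compounds, in comparisons of which 8.76% were called over all probe sets. Methotrexate, uncalled, gave 0.36 (adjusted p = 0.724).

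The germ cell helicase Ddx4 rose with 2 compounds. Glybenclamide gave 8.82, 9.02 and 9.06, against 8.68, 8.41 and 8.58 in DMSO (log2 fold change 0.41 ± 0.10, adjusted p = 0.00548). Loratadine gave 9.00, 8.86 and 8.89 (0.36 ± 0.10, adjusted p = 0.00909). The arrays of both compounds lay above all DMSO arrays, and both calls were lost without DMSO array 2. The loratadine call was also lost without loratadine array 1. Glybenclamide, chosen as the compound of largest change, was called higher than 12 of the 18 other compounds. Over all probe sets, 12.5% of such comparisons were called. VPA gave -0.19 (adjusted p = 0.192) and topiramate -0.23 (adjusted p = 0.386).

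Mael, a protein of the nuage, the perinuclear granule of the piRNA pathway, rose with 3 compounds. Sulfasalazine gave 10.21, 10.16 and 10.13, against 9.77, 9.53 and 9.83 in DMSO (log2 fold change 0.46 ± 0.097, adjusted p = 0.00213). Loratadine gave 10.14, 10.12 and 10.21 (0.45 ± 0.097, adjusted p = 0.000511). VPA gave 10.13, 10.13 and 10.10 (0.41 ± 0.097, adjusted p = 0.000751). All 9 of these arrays lay above the DMSO arrays. Glybenclamide arrays, at 9.97, 9.96 and 9.98, were also above DMSO, with an uncalled difference of 0.26 (adjusted p = 0.0807). With retinoic acid the difference was -0.03 (95% interval -0.23 to 0.16). Sulfasalazine, chosen as the compound of largest change, was called higher than 12 of the 18 other compounds, in comparisons of which 14.6% were called over all probe sets. Its call against DMSO was lost without DMSO array 2 and with each array's interquartile range as a covariate.

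Mov10l1, an RNA helicase needed to make piRNAs, rose with glybenclamide and was called with no other compound. It measured 9.09, 9.00 and 9.00 with glybenclamide, against 8.76, 8.80 and 8.86 in DMSO (log2 fold change 0.23 ± 0.075, adjusted p = 0.0447). The arrays did not overlap. The call was lost in 10 of 16 alternative settings, among them without any 1 of the 3 glybenclamide arrays and without DMSO array 1 or 2. Glybenclamide, chosen as the compound of largest change, lay 0.11 to 0.32 above the 18 other compounds and was called higher than 7 of them. Over all probe sets, 12.5% of these comparisons were called.

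Tdrd1, a Tudor-domain scaffold of the nuage, was called with no compound in the limma test, at a signal under that of the median probe set. Its differences ran between -0.10 (metoclopramide) and 0.15 (sulfasalazine), and 1 of 19 reached an unadjusted p under 0.05. Sulfasalazine arrays read 6.89, 7.0 and 6.89, against 6.75, 6.81 and 6.77 in DMSO. These arrays did not overlap, but the adjusted p was 0.113. The 95% intervals of all 19 comparisons lay between -0.22 and 0.27.

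Dazl fell with dexamethasone, a glucocorticoid, the 1 call in that direction. It measured 7.03, 7.32 and 7.35 with dexamethasone, against 7.62, 7.43 and 7.56 in DMSO. All dexamethasone arrays lay below all DMSO arrays, and the log2 fold change was -0.31 ± 0.081 (adjusted p = 0.0183). With dexamethasone, 4.74% of all probe sets were called lower. Dexamethasone, chosen as the compound of largest change, was called lower than 12 of the 18 other compounds, in comparisons of which 22.3% were called over all probe sets. The call was lost without dexamethasone array 1, without DMSO array 1 or 3, and with each array's interquartile range as a covariate. Dexamethasone array 3 had one of the 3 lowest interquartile ranges, 2.998.

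VPA arrays, at 7.34, 7.36 and 7.30, also lay below DMSO for Dazl, with an uncalled difference of -0.20 (adjusted p = 0.0567). The highest Dazl mean was 7.65 ± 0.014 with retinoic acid, a difference of 0.11 (adjusted p = 0.432).

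**Figure D4:**
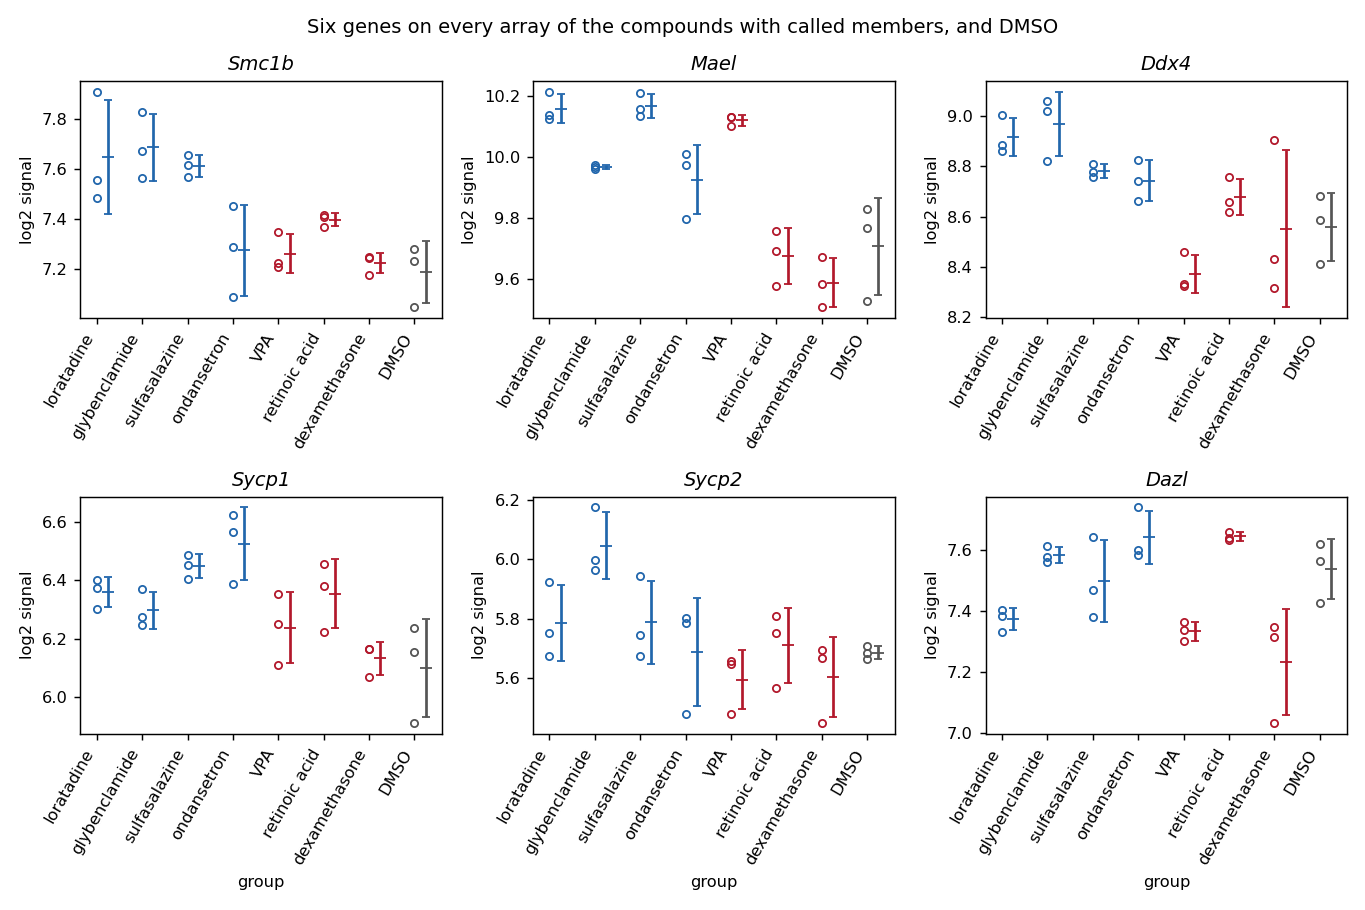
Log2 signal of Smc1b, Mael, Ddx4, Sycp1, Sycp2 and Dazl on each array of the 7 compounds with a called member, and in DMSO at the right; circles are arrays, and bars give the mean and SD of 3. Smc1b is above DMSO with loratadine, glybenclamide and sulfasalazine, and Dazl is below it with dexamethasone.

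By compound, loratadine raised 5 of the 10 genes (Sycp1, Sycp3, Mael, Smc1b and Ddx4), while 10.9% of all probe sets were called higher and 8.26% lower. The median difference of the 10 was 0.18, beside -0.04 over all probe sets. Glybenclamide raised 4 (Sycp2, Smc1b, Ddx4 and Mov10l1; 6.79% of all probe sets), with medians of 0.24 and -0.03. It called 2.75% of all probe sets lower. In 8 of the 10 every glybenclamide array lay above every DMSO array, as it did in 16.6% of all probe sets. The same held for 6 of the 10 with loratadine (4168 of the 21789 probe sets). Sulfasalazine raised 4 (Sycp1, Sycp3, Mael and Smc1b; 5.4% of all probe sets), with medians of 0.18 and -0.01, and called 3.5% of all probe sets lower. Its arrays lay above DMSO in 6 of the 10 (19.6% of all probe sets). Without DMSO array 2, 3 genes were called with loratadine, 2 with glybenclamide and 1 with sulfasalazine.

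Retinoic acid raised 2 of the 10 (Stra8 and Sycp3; 5.9% of all probe sets, with 3.92% lower). Its arrays lay above DMSO in 5 of the 10, as in 11.4% of all probe sets, and the medians were 0.11 for the 10 and -0.03 for all probe sets. VPA raised 2 (Sycp3 and Mael), while 15.5% of all probe sets were called higher and 11% lower, the most of any compound. Its median over the 10 genes was 0.03, beside -0.01 for all probe sets. A share of 2 in 10 is near that background. Dexamethasone lowered 1 (Dazl; 4.74% of all probe sets, with 1.51% higher). Ondansetron raised 1 (Sycp1; 0.289% of all probe sets, with 0.0413% lower).

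**Figure D5:**
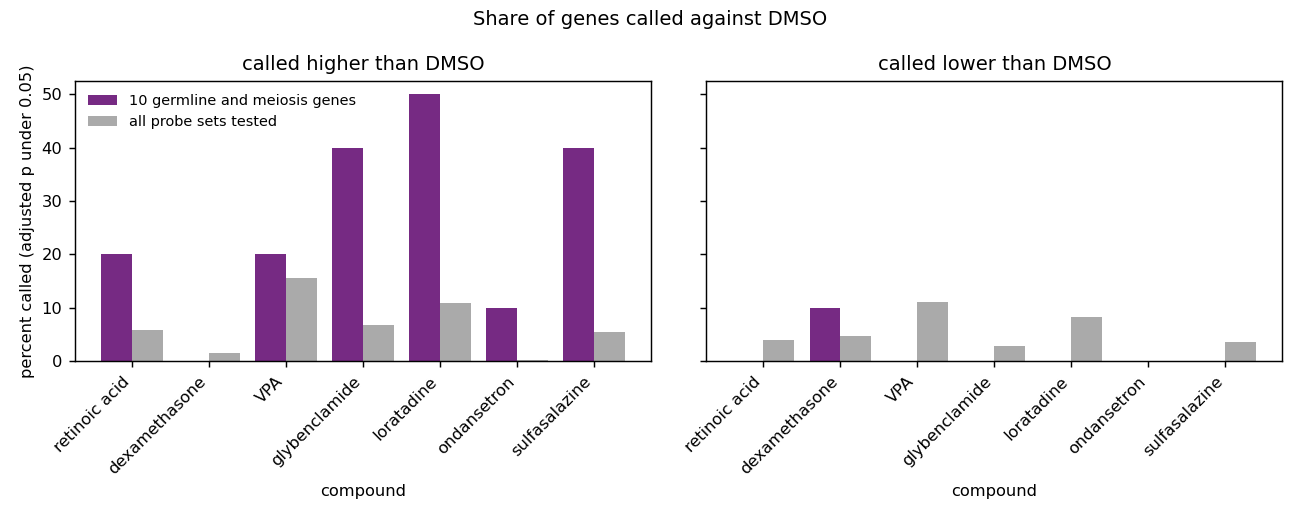
Percent called higher (left) and lower (right) than DMSO at an adjusted p under 0.05, for the 10 genes (purple) and all 21789 probe sets (grey), for the 7 compounds with a called member. With loratadine, 5 of 10 genes stand beside 10.9% of all probe sets; with VPA, 2 of 10 stand beside 15.5%.

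With the other 12 compounds no member was called by limma, and 13 of 120 pairs reached an unadjusted p under 0.05, near the 11.3% of all probe sets that did so. For 6 of these compounds (penicillamine, thalidomide, azacytidine, fluconazole, topiramate and methotrexate) 0% of all probe sets were called. The others had 0.119% (dimethadione), 0.197% (metoclopramide), 1.31% (clozapine), 2.17% (hydrochlorothiazide), 2.58% (chlorthalidone) and 8.76% (paracetamol) called in either direction.

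5-Azacytidine, an inhibitor of DNA methyltransferases, left the 10 genes between -0.08 and 0.06, with 0 of 10 at an unadjusted p under 0.05, beside 8.06% of all probe sets. The 95% intervals of the 10 differences lay between -0.34 and 0.27. Sycp3, for instance, had a mean of 8.96 ± 0.041 with azacytidine and 9.04 ± 0.18 in DMSO, and Dazl 7.56 ± 0.020 with azacytidine and 7.54 ± 0.099 in DMSO (SD, n = 3 each).

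Between the classes, compound means were compared as units, 10 teratogens against 9 non-teratogens, without DMSO. By limma, 0 of the 10 genes and 0% of all probe sets were called, and at an unadjusted p under 0.05 there were 1 gene and 4.38% of all probe sets. That gene was Sycp2, with 5.64 ± 0.044 in the teratogens and 5.75 ± 0.13 in the non-teratogens (SD over compounds), a difference of -0.11 ± 0.042 (adjusted p = 0.976). Stra8 differed by 0.15 ± 0.13 (adjusted p = 0.976), with 5.35 ± 0.45 in the teratogens and 5.20 ± 0.073 in the non-teratogens.

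Other germline genes were counted from 5 lists holding 68 symbols (synaptonemal complex, recombination, meiotic entry, piRNA and methylation-repressed genes), of which 63 were measured. Loratadine raised 17 and lowered 5, where 10.9% of all probe sets were called higher and 8.26% lower. Glybenclamide raised 15 and lowered 1 (6.79% and 2.75% of all probe sets), and sulfasalazine raised 14 and lowered 1 (5.4% and 3.5%). VPA raised 15 and lowered 6 (15.5% and 11%), retinoic acid raised 7 and lowered 3 (5.9% and 3.92%), dexamethasone raised 0 and lowered 6 (1.51% and 4.74%), and paracetamol raised 3 and lowered 6 (4.61% and 4.15%). The same shares are the background of each list below. The median differences over the 63 were 0.09 with glybenclamide, 0.08 with sulfasalazine, 0.06 with loratadine and 0.03 with VPA and with retinoic acid. The corresponding medians over all probe sets are those given above. 5-Azacytidine called 0 of the 63.

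Among 9 other synaptonemal complex and meiotic cohesin genes, loratadine raised 5, glybenclamide 4 and sulfasalazine 3, with none lowered. VPA raised 3 and lowered 1. Stag3, the meiotic cohesin subunit, rose by 0.77 ± 0.072 with glybenclamide (adjusted p = 1.27e-10), 0.52 with sulfasalazine, 0.50 with VPA, 0.48 with loratadine and 0.28 with retinoic acid. Listed as 4930447C04Rik, Six6os1, a central element protein, rose by 0.89 ± 0.12 with loratadine (adjusted p = 1.10e-07), 0.74 with glybenclamide and 0.48 with sulfasalazine, and fell by 0.33 with VPA. Among 16 recombination genes, VPA raised 5 and lowered 2, where 15.5% of all probe sets were called higher and 11% lower, and loratadine, glybenclamide and sulfasalazine raised 4 each with none lowered. Meiob, which binds single-stranded DNA during recombination, rose by 0.88 ± 0.13 with loratadine (adjusted p = 9.43e-07). Its means were 4.42 in DMSO and 5.30 with loratadine, both under the 5.49 of Acrv1, the lowest spermatid and oocyte marker median. How much of the Meiob signal is background was not tested. Dmc1, the meiotic recombinase, rose by 0.53 with VPA and 0.33 with loratadine.

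Of 8 genes around meiotic entry, loratadine raised 2 and lowered 3, VPA raised 2 and lowered 2, and retinoic acid raised 2 and lowered 1. For loratadine and VPA, 8.26% and 11% of all probe sets were called lower. Meioc, which maintains meiotic prophase, rose by 1.32 ± 0.10 with VPA (adjusted p = 6.19e-15) and by 0.46 with loratadine, and fell by 0.36 with dexamethasone. Dmrt1, a transcription factor that controls Stra8 in the gonad, rose by 1.11 ± 0.045 with retinoic acid (adjusted p = 6.93e-25). Kit, the receptor for stem cell factor, rose by 0.94 with retinoic acid and fell by 0.36 with glybenclamide. Of 16 piRNA and nuage genes, glybenclamide raised 4 and lowered 0, loratadine raised 4 and lowered 1, and VPA raised 4 and lowered 1. Tdrd12 rose by 0.37 ± 0.065 with loratadine (adjusted p = 2.29e-05).

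Of 14 genes known to be repressed by DNA methylation, glybenclamide raised 3 and dexamethasone lowered 3. Zcwpw1, a histone reader of meiotic cells, rose by 0.51 with glybenclamide, 0.44 with loratadine and 0.40 with sulfasalazine. Tex19.1 fell by 0.39 with dexamethasone and 0.30 with loratadine and rose by 0.27 with VPA. Of 10 germ cell specification genes, VPA raised 2 and lowered 6, and loratadine raised 1 and lowered 4. The 1 that loratadine raised was Prdm1, the primordial germ cell determinant, which rose by 0.89 ± 0.072 (adjusted p = 1.56e-13), while Nanos3, an RNA-binding germ cell factor, fell by 0.38. Tfap2c and Prdm14, which act with Prdm1, rose by 0.76 and 0.61 with retinoic acid.

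Of 20 repressors of germline genes, glybenclamide and sulfasalazine changed 0, and loratadine raised 1 and lowered 1. VPA raised 2 and lowered 10, where Mga fell by 0.35 ± 0.093 (adjusted p = 0.00277) and Ehmt1, a histone methyltransferase, fell by 0.33. Of 12 retinoid receptor and feedback genes, retinoic acid raised 7 and lowered 1. Cyp26a1, the enzyme that degrades retinoic acid, rose by 4.0 ± 0.086 (adjusted p = 7.47e-37).

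Among the members, group means were most alike for Ddx4 and Mov10l1 (Pearson r = 0.82 over 20 means), Smc1b and Ddx4 (0.79) and Smc1b and Mov10l1 (0.79). The genes most like Smc1b were Phf7 (0.93), Bcap29 (0.93) and Slc16a6 (0.93), those most like Mael were Pecr (0.95), Pcbd1 (0.93) and Apod (0.93), and those most like Ddx4 were Arrdc3, Wdr11 and Thumpd3 (0.92 each). Ide (0.92), Fanci (0.90) and Wdr11 (0.88) were most like Mov10l1. Dazl was most like Fam160b1 (0.89), Mcm9 (0.86) and Utp15 (0.86), Sycp1 most like Cwc27 (0.85), Pawr (0.84) and Atxn3 (0.83), and Sycp2 most like Slc43a2 (0.86), Nprl3 (0.83) and Wdr34 (0.81). The 20 means share arrays normalised together, and these values are descriptions.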

How the data were processed

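The values analysed are the deposited log2 signals of 35556 probe sets on 60 arrays, which the authors made with RMA per the submitters' processing notes. The sources used here give neither RMA's version nor its options. Hybridised material was biotin-labelled cDNA from total RNA, per the labels' protocols. Probe sets were named from the platform annotation, with symbols updated through Entrez ID: 21789 had 1 symbol and were tested, 1621 had several and 12146 had no entry. Where a gene has several probe sets the brightest was used; each member has 1.

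limma 3.58.1 in R 4.3.3 fitted 1 mean per group over all 60 arrays (40 residual degrees of freedom), with each compound minus DMSO and Benjamini-Hochberg adjustment over 21789 probe sets within a comparison. The fit was tested on simulated data with known changes. Each called member's compound of largest change was set against each of the other 18 compounds (162 contrasts over the members), and classes were compared over compound means. The precision is limited by 3 arrays per group. The members and all gene lists were chosen with earlier results of these data known. Named genes were all members, up to 4 called genes of largest change per list and compound, of which some are printed, and the 3 genes most like each called member. Alternatives were quantile normalisation, leaving out dim probe sets, all probe sets, 6-array models, eBayes with trend and robust settings, 2 covariates (the letter b in 8 sample titles, whose meaning the labels do not give, and the interquartile range), joint adjustment and each replicate left out; the average of the remaining compounds as reference and leaving out the 3 arrays of lowest interquartile range were added after seeing the data. Columns of other samples numbered 0. No protein sequences were used.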

Additional observations from a re-analysis of the deposited data

How the results depend on the processing

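Of the 19 called pairs, 8 were called under every setting in which they were tested (Stra8 with retinoic acid; Sycp3 with retinoic acid and loratadine; Mael with loratadine and VPA; Smc1b with glybenclamide, loratadine and sulfasalazine), and 0 pairs reversed. Of 171 uncalled pairs, 21 were called under at least 1 setting. Leaving out probe sets under the median signal keeps 4 members in the test (Sycp3, Mael, Ddx4 and Mov10l1, and so neither Stra8 nor Smc1b). All calls of these 4 were kept, and Sycp3 and Mael with glybenclamide were gained, which gave 12 called pairs. Among them were 1 with retinoic acid, 3 with loratadine and 2 with sulfasalazine. The 0 with dexamethasone and 0 with ondansetron were fixed in advance, since Dazl and Sycp1 were not tested. When each compound was set against the average of the remaining 18 compounds, a comparison chosen after seeing the data, 32 pairs were called, among them 1 with penicillamine, 1 with azacytidine, 4 with hydrochlorothiazide, 2 with dexamethasone, 3 with topiramate and 2 with paracetamol. In models of 6 arrays alone, dexamethasone and ondansetron had 0 each. With the interquartile range as a covariate, dexamethasone had 0, ondansetron 0 and sulfasalazine 1. Adjustment over all 19 comparisons together gave fluconazole 1, methotrexate 1 and VPA 1, and testing all probe sets gave VPA 1. Beyond members left out of a test, the cause of these moves was not tested. Without 1 DMSO array the 190 pairs had 12 to 19 calls. The 12 without DMSO array 2 include pairs that are not among the 19 called pairs. Without 1 array of DMSO or of the compound, calls were 3 to 5 for loratadine, 2 to 5 for glybenclamide, 1 to 4 for sulfasalazine, 2 to 3 for retinoic acid, 1 to 2 for VPA, and 0 to 1 for ondansetron, dexamethasone, hydrochlorothiazide and paracetamol. The class difference had 0 called members in each alternative. The mean of all probe sets of a member gave no other value, since each has 1. No paired analysis was possible because the replicate numbers follow accession order and pair nothing. Arrays give no read depth, and 3 arrays per group limit which differences can be called.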
